A study of Mus musculus with 8 samples.

Results

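The 37 genes described here are type I interferon response genes: signalling factors, viral RNA and DNA sensors, antiviral effectors and enzymes of protein modification that cells switch on when an interferon binds its receptor. They were taken by name from a list of well known members of this response. That list was written with earlier results of these data known. All 37 had a probe on the array. A gene was kept where a probe of it was detected well above background in both mice of any group, which held for all 37 members and for 25830 of the 37074 gene names on the array. On 8 of 8 arrays 36 of them were above background; Oas3 was above background on 7, the exception being LW replicate 1.

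Lungs were taken from male bone marrow chimeras aged 22 weeks, 72 hours after diphtheria toxin. In LysM-DTR mice the lysozyme M promoter, active in myeloid cells such as macrophages and neutrophils and in the surfactant-making alveolar type 2 cells of the lung, drives the receptor for the toxin, so that the toxin can kill cells that use this promoter. There were 2 mice and 2 arrays in each of 4 groups named by donor and then recipient: LL (LysM-DTR marrow in LysM-DTR recipients), WL (wild-type marrow in LysM-DTR recipients), LW (LysM-DTR marrow in wild-type recipients) and WW (wild-type marrow in wild-type recipients). All 8 mice received the toxin and no array is of a mouse without it, so a group difference here is one between genotypes under toxin; how far donor cells had replaced those of the recipient is not given in the sources used here. The 8 fixed lung markers, among them the surfactant gene Sftpc, the type 1 cell gene Ager and the endothelial gene Cdh5, were well above background on all 8 arrays.

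Type I interferons (the interferon alphas and interferon beta) are secreted by cells whose sensors detect foreign or misplaced nucleic acid, and act on the receptor made of Ifnar1 and Ifnar2. The receptor activates a complex with Stat2 and Irf9 that binds a short promoter element, the interferon-stimulated response element, and Irf7, itself a target of this complex, then raises interferon production further. In the lung the response limits respiratory viruses, and it can also run in injured tissue without a virus.

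The response element is shown first because it is what many of these promoters are known to share. RefSeq promoter windows on GRCm38.p6, which run from 250 bases before to 50 bases after a gene's start, were at hand for 27 of the 37 members. Its core, searched on both strands, is GAAA, any 2 bases, and GAAA again (TTTC, any 2 bases, and TTTC on the other strand); overlapping matches were counted separately. They occurred in the windows of 11 of the 27 members (40.7%), against 3.99% of all 27025 genes with a window and 3.44% of all 32851 windows of this length. In 8 of the 11 a match lay before the start; the match began 2 bases after it in Ddx58, 18 in Eif2ak2 and 32 in Ifih1. Below, 80 bases upstream of 6 members are given 5′ to 3′ in the direction of the gene, with the matches in capitals: Isg15, Ifit1, Ifit3, Oas1a, Bst2 and Rsad2, chosen to show matches that overlap, that are paired and that stand alone. They lie at chr4:156200844-156200923 (minus strand) for Isg15, chr19:34640759-34640838 (plus) for Ifit1, chr19:34583354-34583433 (plus) for Ifit3, chr5:120907526-120907605 (minus) for Oas1a, chr8:71537553-71537632 (minus) for Bst2 and chr12:26456528-26456607 (minus) for Rsad2.
Isg15: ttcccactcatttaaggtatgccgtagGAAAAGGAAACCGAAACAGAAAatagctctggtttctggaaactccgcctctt
Ifit1: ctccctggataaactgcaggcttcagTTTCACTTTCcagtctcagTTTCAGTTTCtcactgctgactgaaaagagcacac
Ifit3: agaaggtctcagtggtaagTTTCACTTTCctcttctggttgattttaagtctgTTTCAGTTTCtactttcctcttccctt
Oas1a: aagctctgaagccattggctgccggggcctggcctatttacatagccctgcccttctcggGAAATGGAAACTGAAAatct
Bst2: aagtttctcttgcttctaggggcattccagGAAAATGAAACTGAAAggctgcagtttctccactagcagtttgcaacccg
Rsad2: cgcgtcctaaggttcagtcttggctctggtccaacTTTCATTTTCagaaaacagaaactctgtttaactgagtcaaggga
Isg15 carries 3 matches that overlap in 1 run, Oas1a and Bst2 carry 2 that overlap, and Ifit1 and Ifit3 carry 2 apart from each other. A match is a description of these letters and not a binding site. The log2 difference between LL and WW, described next, had a median of 0.66 (range 0.18 to 1.75) over the 11 members with a match and of 0.53 (0.13 to 1.52) over the 16 with a window and no match.

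**Figure D1:**
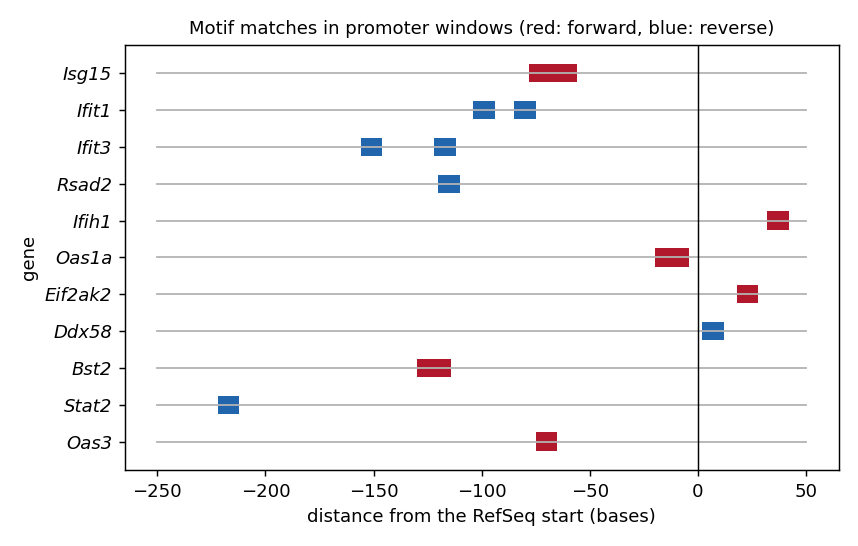
Matches of the response element core read on the gene's strand (red) or on the other strand (blue) in the promoter windows of the 11 members that hold one, by distance in bases from the RefSeq start (0). In 8 of the 11 genes a match lies before the start, and in Ddx58, Eif2ak2 and Ifih1 it lies after it.

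Levels below are log2 intensities relative to each array's 75th percentile of all probes, which stands at 0; they compare arrays for 1 gene and not genes with each other. Differences are log2 differences of group means (n = 2 mice per group), tested with limma over all 25830 genes with Benjamini-Hochberg adjustment and called at an adjusted p under 0.05. Counts of genes that rose or fell are counts of genes called higher or lower. In whole lung, fewer cells of a type and less RNA per cell cannot be told apart.

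The interferon response genes were higher in LL than in WW by a median of 0.62, where the median of all genes was 0.03. All 37 members had a difference above 0, from 0.07 for Dhx58 to 1.75 for Isg15, against 52.4% of all genes. The members were chosen with earlier results of these data known, so this count is not an independent test. Both LL arrays exceeded both WW arrays for 32 members, against 37% of all genes; the exceptions were Oas2, Oas3, Mx1, Cmpk2 and Dtx3l. No member was called, where 3.13% of all genes were, and 20 members had an unadjusted p under 0.05 with a positive difference, as had 12.4% of all genes. That no member was called rested on the WL arrays, which add to the pooled error. In the fit without both WL arrays 19 members were called higher and none lower, where 32.1% of all genes were called and 17.3% were called higher. The 19 were Irf7, Ifih1, Ddx58, Zbp1, Eif2ak2, Ifit1, Ifit2, Ifit3, Oas1a, Oasl1, Oasl2, Isg20, Xaf1, Rtp4, Ifi35, Lgals3bp, Isg15, Usp18 and Parp12.

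The WL mice were unlike each other. Across genes, the Pearson r between replicates was 0.96 in WL, against 0.99 in LL, 0.99 in LW and 0.992 in WW. WL replicate 1 had an r of 0.959 with the LL mean, against 0.993 with the mean over LW and WW. WL replicate 2 had 0.974 with the LL mean, against 0.957 with that of LW and WW. The members followed the same division, with a median of 0.10 above the WW mean on the first WL array and 0.57 on the second. Whether the genotype labels or the toxin doses of the WL mice are as given was not tested, and every WL mean and the interaction rest on these 2 unlike mice. All 8 arrays lay on 1 slide, LL and WL in one column and LW and WW in the other, with the LysM-DTR donor groups at places 1 and 2 and the wild-type donor groups at places 3 and 4, so place on the slide and genotype cannot be told apart.

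**Figure D2:**
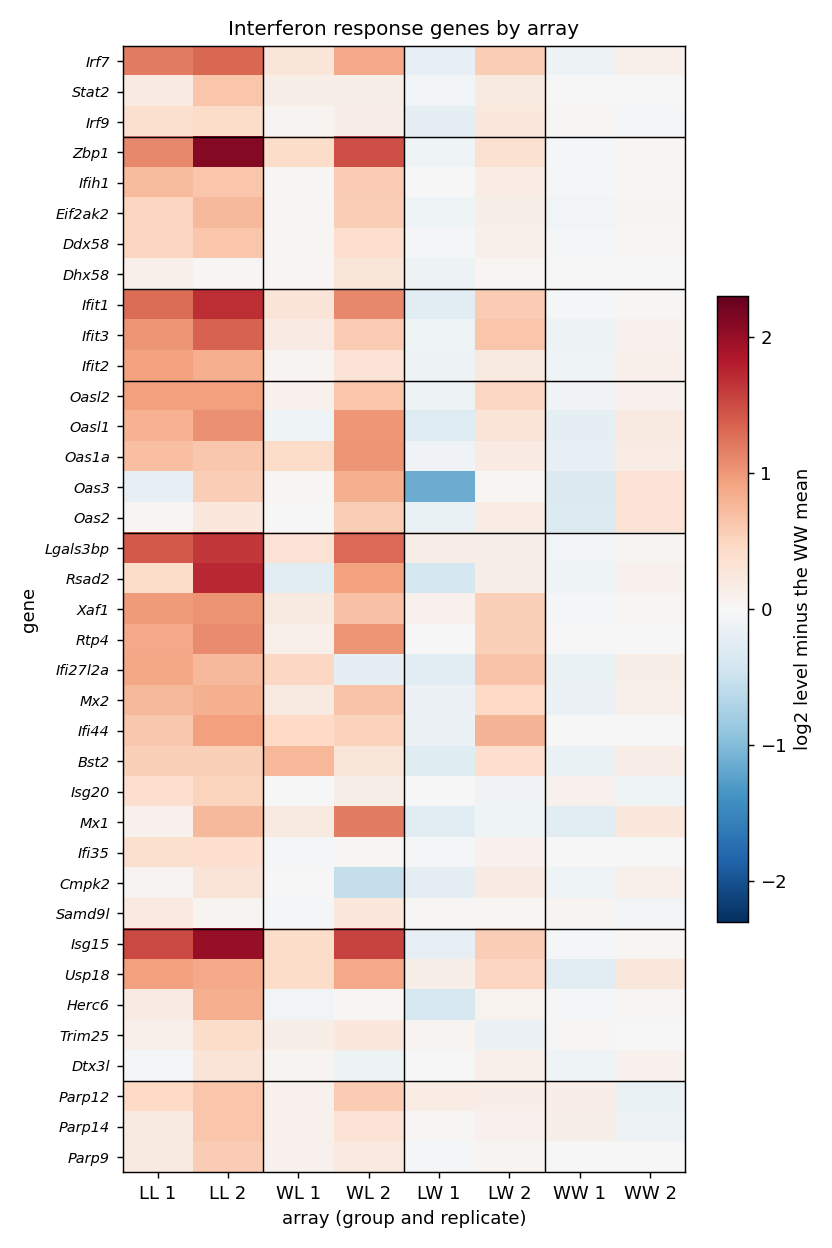
Log2 level of each of the 37 genes minus its WW mean (colour) on each of the 8 arrays (columns), with genes grouped by role and ordered within a role by the LL difference. LL replicates 1 and 2 are high for most genes, WL replicate 2 is high for many, and Zbp1 and Isg15 on LL replicate 2 are the darkest cells.

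Among the signalling factors, Irf7, the factor that amplifies interferon production, stood furthest apart. Its level was 4.78 and 4.92 in LL, 3.88 and 4.48 in WL, 3.41 and 4.16 in LW, and 3.48 and 3.71 in WW (probe at chr7:148449104-148449163, mm9). Both LL values lay above the other 6, and LW replicate 2 lay above both WW mice. The difference between LL and WW was 1.25 (SE 0.308, 2.38-fold, adjusted p = 0.0888 with limma; 0.0226 without both WL arrays), and 1.62 on a second Irf7 probe. Irf9, the DNA-binding subunit of the interferon-activated complex, had the smallest difference of the class, 0.38 (SE 0.182, adjusted p = 0.244). It was at 3.04 and 3.10 in LL, 2.75 and 2.84 in WL, 2.46 and 2.92 in LW, and 2.71 and 2.66 in WW, so that the LL arrays were the highest pair. Stat2, its partner, was at 0.41 (SE 0.195, adjusted p = 0.24).

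Of the nucleic acid sensors, Zbp1, a sensor of left-handed Z-form nucleic acid linked to necroptosis, differed most between LL and WW, by 1.60 (SE 0.454, 3.04-fold, adjusted p = 0.115; 0.0269 without both WL arrays). It was at 0.97 and 1.99 in LL, 0.29 and 1.36 in WL, -0.22 and 0.22 in LW, and -0.17 and -0.09 in WW. The 2 mice of LL and of WL were far apart, and WL replicate 2 exceeded LL replicate 1. The difference was 0.68 for Ifih1 (MDA5) and 0.57 for Ddx58 (RIG-I), helicases that sense viral RNA, and 0.62 for Eif2ak2 (PKR), a kinase that RNA activates to halt translation. Dhx58 (LGP2), the third helicase of that family, had the smallest difference of all 37 genes, 0.07 (SE 0.151, adjusted p = 0.772). Its levels were -0.44 and -0.52 in LL, -0.53 and -0.28 in WL, -0.66 and -0.50 in LW, and -0.56 and -0.54 in WW. The LL pair lay just above the WW pair, and WL replicate 2 was the highest array.

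The 3 IFIT genes, which code for proteins that bind foreign RNA and block its translation, had a median difference of 1.19, and the LL and WW arrays of each did not overlap. Ifit1 was at 1.45 and 1.85 in LL, 0.46 and 1.26 in WL, -0.10 and 0.75 in LW, and 0.14 and 0.18 in WW, a difference between LL and WW of 1.49 (SE 0.371, 2.81-fold, adjusted p = 0.0912). Ifit2 had the smallest difference of the 3, 0.87, and the smallest error (SE 0.18, adjusted p = 0.0619). It was at -0.33 and -0.42 in LL, -1.18 and -0.93 in WL, -1.36 and -1.05 in LW, and -1.35 and -1.14 in WW. Unlike Ifit1, both WL values of Ifit2 lay nearer to WW than to LL. Ifit3 was at 1.19 (SE 0.292, adjusted p = 0.0892). All 3 were called higher with limma in the fit without both WL arrays, at an adjusted p of 0.0215 for Ifit1, 0.0124 for Ifit2 and 0.03 for Ifit3.

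The OAS family holds enzymes that make the oligoadenylates which activate RNase L, and proteins related to them. Of its 5 members, the OAS-like genes Oasl2 and Oasl1 both had a difference of 0.93, Oas1a of 0.66, Oas3 of 0.18 and Oas2 of 0.14. Oasl2 was at 3.40 and 3.40 in LL, 2.55 and 3.10 in WL, 2.35 and 2.93 in LW, and 2.38 and 2.55 in WW, with the LL pair above all others (SE 0.261, adjusted p = 0.113). Oas2 was at 2.20 and 2.39 in LL, 2.15 and 2.71 in WL, 1.99 and 2.32 in LW, and 1.83 and 2.48 in WW. Its WW mice enclosed both LL mice (SE 0.293, adjusted p = 0.781), and without WW replicate 1 the difference turned to -0.18. Oas3 turned as well, to -0.20 without LL replicate 2 and to -0.15 without WW replicate 1. Oas1a, Oas2 and Oas3 lie in a cluster of related genes, and how far their probes also read other Oas1 genes was not measured.

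Among the 13 other effectors, Lgals3bp, a secreted galectin-binding glycoprotein, had the largest difference, 1.52, and the smallest adjusted p of all members (SE 0.311, 2.86-fold, adjusted p = 0.0617; 0.00281 without both WL arrays). It was at 5.19 and 5.41 in LL, 4.12 and 5.09 in WL, 3.94 and 3.91 in LW, and 3.72 and 3.85 in WW. The LL mice were highest, WL replicate 2 came close to them, and both LW mice lay above both WW mice. A second, dimmer Lgals3bp probe went the other way, at -0.49. Samd9l, an antiviral factor, had the smallest difference of these effectors, 0.15 (SE 0.154, adjusted p = 0.563): it was at 2.43 and 2.28 in LL, 2.19 and 2.45 in WL, 2.24 and 2.24 in LW, and 2.27 and 2.15 in WW. Its LL replicate 2 and WW replicate 1 nearly met, and WL replicate 2 was the highest array.

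The other effectors fell between these values. Rsad2 (viperin, which makes a chain-terminating nucleotide) had a difference of 1.09 (SE 0.543), Xaf1, which promotes apoptosis, of 1.01, and Rtp4, which restrains several viruses, of 0.98. Ifi27l2a was at 0.81, the Mx GTPase Mx2 at 0.78, Ifi44 at 0.77 and Bst2 (tetherin, which holds budding virus at the cell surface) at 0.55. The RNA exonuclease Isg20 was at 0.46, Mx1 at 0.41, Ifi35 at 0.37 and the nucleotide kinase Cmpk2, the neighbour of Rsad2 on chromosome 12, at 0.17. Mx1, a dynamin-like GTPase that acts against influenza viruses, was highest on WL replicate 2 (-0.17), above LL (-1.25 and -0.61) and WW (-1.59 and -1.10). Rsad2 had mice far apart in LL (0.17 and 1.48) and in WL (-0.51 and 0.67), against -0.36 and -0.16 in WW. Without both WL arrays 5 of the 13 were called higher: Isg20, Xaf1, Rtp4, Ifi35 and Lgals3bp.

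Isg15, a ubiquitin-like protein that is joined to other proteins or secreted, had the largest difference of the 37 genes, 1.75 (SE 0.43, 3.36-fold, adjusted p = 0.089; 0.0125 without both WL arrays). It was at 4.48 and 4.97 in LL, 3.40 and 4.53 in WL, 2.78 and 3.53 in LW, and 2.92 and 3.02 in WW (probe at chr4:155573649-155573708, mm9). WL replicate 2 exceeded LL replicate 1, so LL and WL overlapped, whereas LL and WW did not. Usp18, the protease that removes Isg15 and dampens receptor signalling, was at 0.91 (SE 0.254, adjusted p = 0.113), Herc6, the ligase that attaches Isg15 in mice, at 0.51 and Trim25, a ligase that acts on Ddx58, at 0.27. Dtx3l, a ubiquitin ligase and partner of Parp9, had the smallest difference of the class, 0.13 (SE 0.173, adjusted p = 0.649), with 0.84 and 1.16 in LL, 0.94 and 0.76 in WL, 0.88 and 0.98 in LW, and 0.77 and 0.96 in WW. LL and WW overlapped, and the difference turned to -0.03 without LL replicate 2.

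The 3 ADP-ribosyltransferases, which attach ADP-ribose to proteins, lay between 0.40 and 0.55. Parp12 was at 0.36 and 0.53 in LL, 0.00 and 0.49 in WL, 0.07 and 0.06 in LW, and 0.05 and -0.26 in WW, a difference between LL and WW of 0.55 (SE 0.212, adjusted p = 0.186; 0.0373 without both WL arrays). Parp9 was at 1.76 and 2.13 in LL, 1.64 and 1.77 in WL, 1.52 and 1.61 in LW, and 1.54 and 1.55 in WW, a difference of 0.40 (SE 0.168, adjusted p = 0.209). In both genes the LL arrays exceeded the WW arrays, and WL replicate 2 exceeded LL replicate 1. Parp14 was at 0.42.

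**Figure D3:**
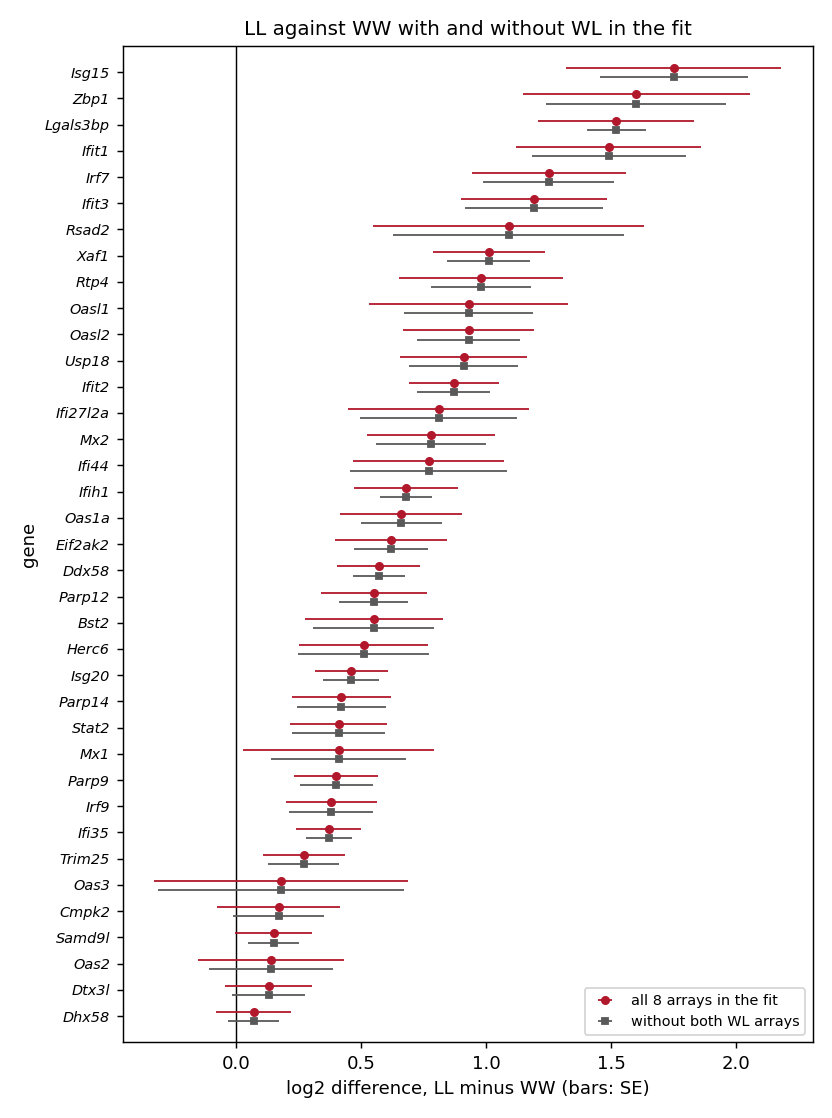
Log2 difference between LL and WW for each of the 37 genes, with bars of 1 SE, from the fit with all 8 arrays (red) and from the fit without both WL arrays (grey). The differences are the same in both fits, from 0.07 for Dhx58 to 1.75 for Isg15, and most bars are shorter without WL, Lgals3bp the clearest case.

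Over all probes of the members, 57 of 62 kept probes had a difference above 0 between LL and WW. For 17 members there was 1 kept probe; of the 20 with several, 16 had all of them above 0. The other 4 each had a dimmer probe on the other side: Dtx3l (-0.07), Lgals3bp (-0.49), Parp9 (-0.26) and Trim25 (-0.28 and -0.01). With the mean of its probes in place of the brightest, Trim25 was at -0.01.

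WL against WW, with the receptor in the recipient alone, gave a smaller median, 0.34, where the median of all genes was -0.05. Of 37 members 33 had a difference above 0, against 45.1% of all genes, and for 21 both WL arrays exceeded both WW arrays, against 17.5% of all genes. No member was called (0.00387% of all genes were), and Oas1a, Lgals3bp and Usp18 had an unadjusted p under 0.05 with a positive difference, as had 3.16% of all genes. Isg15 had the largest difference, 1.0 (SE 0.43), followed by Zbp1 at 0.95 and Lgals3bp at 0.82, each with an adjusted p of 0.486. Without WL replicate 1 the median was 0.57 and 7 members were called, where 37.7% of all genes were called; that fit holds 1 WL mouse, which is assumed to vary like the others. Without WL replicate 2 the median was 0.10 and none was called.

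LW against WW, with the receptor in the marrow alone, gave a median of 0.06, where that of all genes was -0.02. There were 28 members above 0, against 44.9% of all genes, and 4 (Xaf1, Rtp4, Lgals3bp and Parp12) whose arrays did not overlap, against 13.8% of all genes. No member was called (0.0542% of all genes were) and none had an unadjusted p under 0.05 with a positive difference (0.662% of all genes had). Ifi44 had the highest difference, 0.32 (SE 0.301), and Oas3 the lowest, -0.57 (SE 0.509), each with an adjusted p of 1. The 2 LW mice differed: 11 members lay above the WW mean on replicate 1 and 34 on replicate 2, with medians of -0.10 and 0.18. The comparisons of LL, WL and LW with WW share the WW arrays.

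The LL lungs were also set against the groups with the receptor on 1 side. Against LW the median was 0.60 (0.05 over all genes). All 37 members were above 0, against 54.4% of all genes, and 30 did not overlap, against 40.3% of all genes. None was called, where 2.8% of all genes were, and the smallest adjusted p with limma was 0.068. Without both WL arrays 15 were called higher and none lower, where 32.8% of all genes were called and 18.5% were called higher. Isg15 was at 1.57 (SE 0.43, adjusted p = 0.107) and Lgals3bp at 1.38 (SE 0.311, adjusted p = 0.0741). Against WL the median was 0.36 (0.05 over all genes). There were 32 members above 0, against 56.9% of all genes, and 19 that did not overlap, against 23.5% of all genes. The median was 0.19 without WL replicate 1, 0.45 without WL replicate 2 and 0.24 without LL replicate 2. None was called (1.72% of all genes were). Ifit2, Ifit3, Isg20, Xaf1 and Ifi35 had an unadjusted p under 0.05 with a positive difference, as had 8.37% of all genes, and Ifit3 was at 0.81 (SE 0.292, adjusted p = 0.282). The 5 members below 0 were Mx1 (-0.28), Oas3 (-0.24), Oas2 (-0.14), Dhx58 (-0.08) and Oas1a (-0.06), each within 1 SE of 0.

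The interaction asks whether the difference made by the marrow (LL minus WL) in LysM-DTR recipients departs from that (LW minus WW) in wild-type recipients. Its median over the members was 0.28 (0.07 over all genes), with 30 of 37 above 0, against 57.4% of all genes. That median was 0.05 without WL replicate 1, 0.11 without LW replicate 1 and 0.17 without LL replicate 2, and reached 0.42 without LW replicate 2, so it rested on single mice; 24 to 36 members were above 0 over these and the other left-out arrays. No member was called (0.0619% of all genes were), and of the members Ifit2 alone had an unadjusted p under 0.05 with a positive value, as had 5.56% of all genes, at 0.65 (SE 0.254, adjusted p = 0.526). Without WL replicate 2, 1 member was called, where 8.55% of all genes were.

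**Figure D4:**
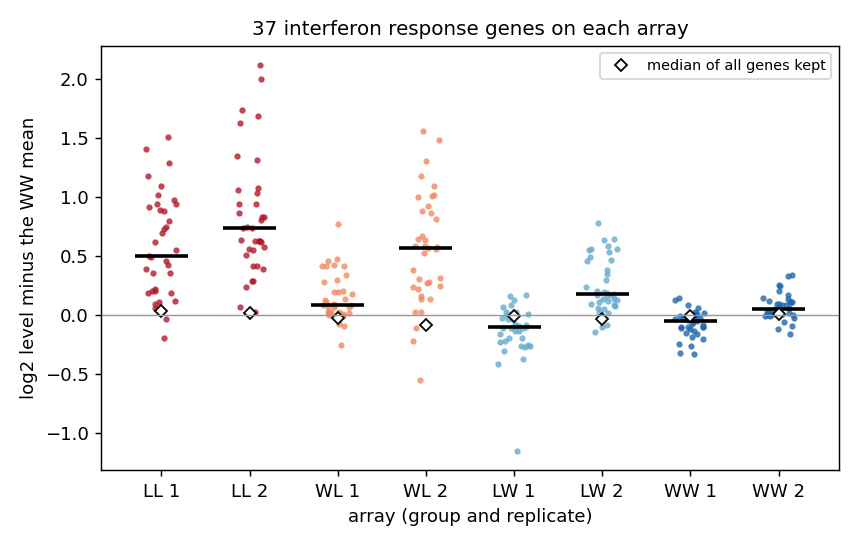
Log2 level minus the WW mean of the 37 genes (points) on each array, with their median (bar) and the median of all 25830 genes kept (open diamond). The member medians are 0.51 and 0.73 in LL, 0.10 and 0.57 in WL, -0.10 and 0.18 in LW, and -0.05 and 0.05 in WW, while the diamonds stay near 0.

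Within each pair of mice most members differed in the same direction. Replicate 2 was higher than replicate 1 for 29 of 37 members in LL, 33 in WL, 33 in LW and 28 in WW, against 47.8%, 47.2%, 45% and 52.6% of all genes. The median gap was 0.20 in LL, 0.45 in WL, 0.36 in LW and 0.10 in WW. Taken without sign, the members' median gap was 0.20 in LL, 0.49 in WL, 0.36 in LW and 0.17 in WW, against 0.17, 0.44, 0.12 and 0.14 over all genes, so only in LW did the size of the members' gaps stand well above that of all genes. Replicate 2 lay at place 2 or 4 of its slide column in all 4 groups, so mouse and place cannot be told apart.

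The ligands and receptor of the pathway were read from lists of other interferon genes. Ifnb1, interferon beta, was well above background on 3 arrays only, both LL arrays and WL replicate 2. Its level was -3.52 and -4.85 in LL, -6.60 and -4.11 in WL, -6.90 and -6.92 in LW, and -6.90 and -7.50 in WW. It was kept only because both LL arrays were well above background, so its higher level in LL partly follows from the filter. For a lower bound, each LW and WW array was set at its lowest signal found well above background or at its own Ifnb1 level, whichever was higher. The LL mean was then at least 1.6-fold that of WW and at least 1.31-fold that of LW. That bound rested on LL replicate 1. LL replicate 2 lay below the lowest such signal of WW replicate 1 (-4.571) and of both LW arrays (-4.565 and -4.584). The bounds were not tested. The differences without a bound, 3.02 and 2.73, had an adjusted p of 0.11 and 0.128 with limma (0.00991 and 0.0129 without both WL arrays). With all 8 arrays the 9 measured interferon alpha and related genes and the receptor chains did not pass: Ifnar1 was at -0.21 (SE 0.19) and Ifnar2 at 0.11 (SE 0.144) between LL and WW. Over the 12 measured type I interferon and receptor genes the median was 0.23 and none was called. Without both WL arrays 2 were called higher with limma, Ifnb1 and Ifna1 (0.47, adjusted p = 0.0211), and 1 lower, Ifnk (-1.13, adjusted p = 0.0208). The call of Ifnb1 rests on the filter named above and on WW levels not well above background, so it is not taken as support for a rise. In that fit 32.1% of all genes were called. Ifng, interferon gamma of T and NK cells, was at -5.86 and -3.58 in LL, -2.28 and -4.44 in WL, -3.29 and -2.72 in LW, and -3.09 and -2.81 in WW. Its difference between LL and WW was -1.76 (SE 0.919, adjusted p = 0.274 with limma). On LL replicate 1 it lay below the lowest signal found well above background on that array (-5.22), so the size of the difference is uncertain.

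The 10 kinases, STATs and IRFs analysed outside the member list had a median of -0.08 between LL and WW, with 5 above 0. Of all genes, 3.13% were called between LL and WW with all 8 arrays and 32.1% without both WL arrays. Irf1 was at 0.51 (SE 0.212, adjusted p = 0.206). Irf5, a factor of macrophages and dendritic cells, was the 1 member of this list that fell with all 8 arrays: it was at -1.82 and -1.82 in LL, 0.25 and 0.58 in WL, -0.31 and -0.30 in LW, and 0.09 and 0.04 in WW. It fell by 1.88 between LL and WW (SE 0.155, adjusted p = 0.00801), by 2.24 against WL (adjusted p = 0.00579) and by 1.51 against LW (adjusted p = 0.0153). Without both WL arrays Irf8, a factor of myeloid and dendritic cells, fell as well, by 1.43 between LL and WW (adjusted p = 0.00596). Among the 14 upstream sensors and adaptors the DNA sensor Aim2 fell by 2.79 between LL and WW (SE 0.386, adjusted p = 0.0236), and among the 8 negative regulators the phosphatase Ptpn6 (SHP-1) of blood cells fell by 2.01 (SE 0.242, adjusted p = 0.0177). Without both WL arrays 3 negative regulators rose between LL and WW: Socs3, an inhibitor of cytokine receptor signalling, by 1.71 (adjusted p = 0.0212), and the phosphatases Ptpn11 by 0.69 (adjusted p = 0.0087) and Ptpn2 by 0.64 (adjusted p = 0.0336). In that fit 2 of the 14 sensors and adaptors rose and 2 fell. Aim2 and Ptpn6 were lower in LL than in the other LysM-DTR groups too. Aim2 was at -2.45 against WL (adjusted p = 0.0443) and -2.63 against LW (adjusted p = 0.0308), and Ptpn6 at -1.97 against WL (adjusted p = 0.0214) and -1.84 against LW (adjusted p = 0.0235).

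Of 46 other interferon-induced genes 28 were above 0 between LL and WW, with a median of 0.12. None was called, and without both WL arrays 4 were called higher and 4 lower, where 32.1% of all genes were called. Ifit3b, a close copy of Ifit3 whose RNA may also reach the Ifit3 probe, was at 0.98 (SE 0.234, adjusted p = 0.0839). Of the 22 genes of GTPases and chemokines known as targets of interferon gamma, 18 were above 0 with a median of 0.50, and none was called (1 higher and 1 lower without both WL arrays). The 2 LL mice differed: against the WW mean the list stood at -0.16 on LL replicate 1 and at 1.24 on LL replicate 2, where the members stood at 0.51 and 0.73. Cxcl10, a chemokine that interferons and other inflammatory signals induce, was at 3.07 and 3.17 in LL, 1.15 and 3.94 in WL, 0.12 and 0.82 in LW, and 0.74 and 0.70 in WW. The LL arrays lay close together and above the LW and WW arrays, and the WL mice lay on either side of them (LL against WW 2.40, SE 0.829, adjusted p = 0.158; 0.00386 without both WL arrays).

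**Figure D5:**
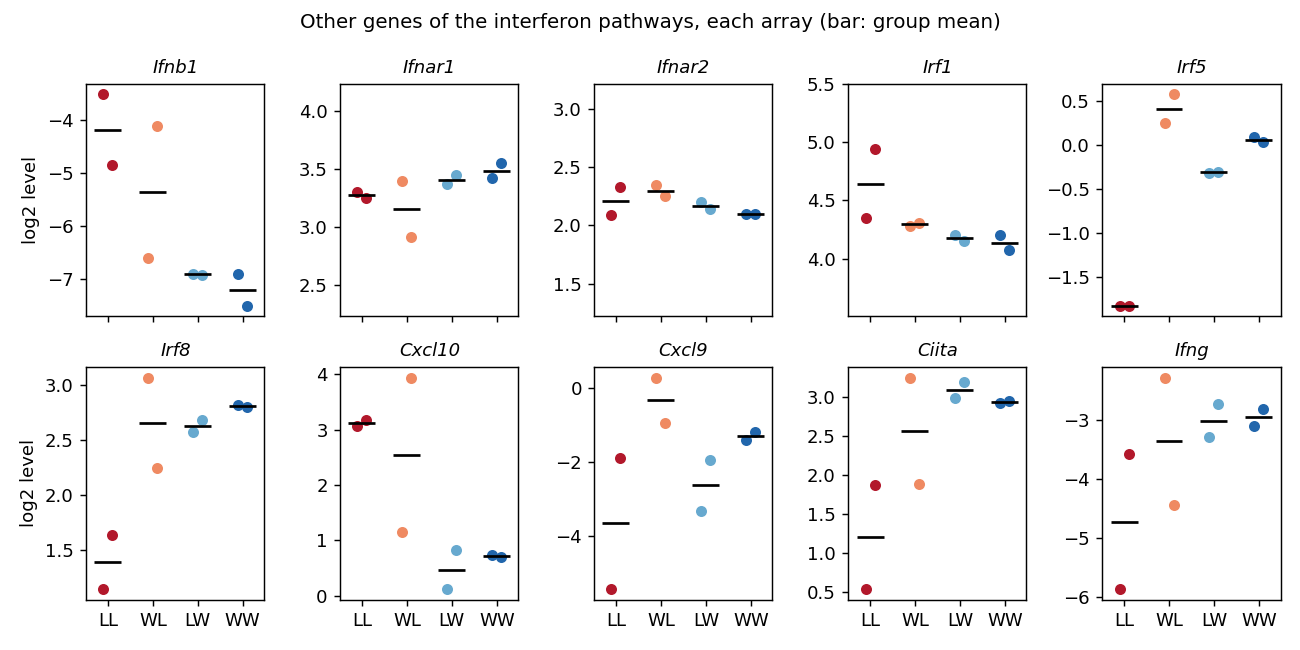
Log2 level of 10 other genes of the interferon pathways on each array (points) with group means (bars); the vertical scale differs between panels. Ifnb1 was well above background only on the 2 LL arrays and WL replicate 2, Irf5 is low on both LL arrays, and Cxcl10 is high on both LL arrays and on WL replicate 2; Irf8, Cxcl9 and Ciita were chosen after their values were seen.

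Markers of several cell types moved with the groups, and their part in the members' differences was not tested. Summed relative levels are linear sums over a list of 2 to the power of the level. For the counts in this and the next paragraph, 495 of all 25830 genes were called lower between LL and WW, and 8375 were lower with no overlap. Without both WL arrays 3815 of the 25830 genes were called lower and 4471 higher. For the 8 alveolar type 2 markers the sum was 664 to 783 in LL, 583 to 1460 in WL, 1420 to 1600 in LW and 1560 to 1670 in WW; in WL it was 1460 on replicate 1 and 583 on replicate 2. All 8 were lower in LL than in WW with no overlap; none was called with all 8 arrays, and 6 fell in the fit without both WL arrays, from which the 19 calls of members come. For the 8 alveolar macrophage markers the sum was 17 to 51.9 in LL, 122 on both arrays in WL, 74.5 to 110 in LW and 94 to 111 in WW. The WL mice differed despite their equal sums. On WL replicate 1 all 8 markers lay above the WW mean (median 0.45), and on WL replicate 2 only 2 did (median -0.46). In LL against WW 6 of 8 were lower with no overlap and 4 were called lower, and Siglecf was not well above background on the LL arrays. Of the 10 markers of monocytes and recruited macrophages 7 fell (median -4.04; 8 fell and 1 rose without both WL arrays), while their sum was higher in LL, 288 to 355, against 171 to 281 in WL, 143 to 157 in LW and 166 to 174 in WW. The brightest of them, Ly6c2, was at 8.08 and 8.39 in LL and 6.99 and 6.90 in WW and carries most of that sum. Of the 10 markers 2 were above 0 between LL and WW, and 8 were lower with no overlap. Among those 8, Cx3cr1 was at -6.41, Ms4a7 at -5.84 and Ccr2 at -5.06.

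Plasmacytoid dendritic cells are known as strong producers of interferon alpha. Their 10 markers summed to 393 to 395 in LL, 297 to 370 in WL, 378 to 401 in LW and 403 to 427 in WW. Between LL and WW 9 of the 10 were below 0 (median -0.55), against 12288 of all 25830 genes, and 6 were lower with no overlap. None was called, 5 were called lower without both WL arrays, and Klk1 was not well above background in LL. Siglech, the brightest, was at 8.40 and 8.37 in LL and 8.38 and 8.47 in WW and carries most of that sum, whereas Ly6d was at -2.14 and Spib at -1.94 between LL and WW. Of 8 conventional dendritic cell markers 7 were lower in LL than in WW with no overlap, and 4 were called lower (6 without both WL arrays). Their sum was 1.38 to 1.58 in LL, 4.64 to 5 in WL, 2.63 to 4.16 in LW and 3.82 to 4.41 in WW. Cd209a and Xcr1 were not well above background in LL. The 7 measured T cell markers summed to 11.9 to 12.8 in LL, 13.1 to 24 in WL, 22.3 to 24.9 in LW and 21.9 to 26 in WW. In LL against WW 6 of them were lower with no overlap, and 1 was called lower (5 without both WL arrays). The 8 B cell markers summed to 4.35 to 4.66 in LL, 6.46 to 30.8 in WL, 26.6 to 45 in LW and 24.6 to 30.6 in WW, with Blk not well above background in LL; all 8 were lower in LL than in WW with no overlap, none was called with all 8 arrays, and 6 fell without both WL arrays. The 8 NK cell markers summed to 2.56 to 2.94 in LL, 4.48 to 12.1 in WL, 11.1 to 16.1 in LW and 12.8 to 13 in WW. All 8 were lower in LL than in WW with no overlap, and 3 were called lower (6 without both WL arrays). Ncr1 was not well above background in LL. The lymphocyte sums were thus lowest in LL and widest in WL. The 10 neutrophil markers, none of them called (2 higher and 1 lower without both WL arrays), summed to 246 to 421 in LL, 225 to 332 in WL, 241 to 332 in LW and 281 to 433 in WW. Csf3r, at 7.46 and 7.32 in LL and 7.33 and 7.51 in WW, carries much of that sum. Between LL and WW 5 of the 10 were above 0 and 5 below, from -3.3 for Cxcr2 to 2.79 for Ngp. The 6 endothelial markers, none of them called (1 higher and 1 lower without both WL arrays), summed to 104 to 124 in LL, 80.6 to 92.7 in WL, 94.7 to 94.8 in LW and 92.7 to 103 in WW.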

How the data were processed

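RNA from each of the 8 lungs was labelled with Cy3 and run on a one-colour Agilent array. The deposited array files hold, per the file headers, each spot's processed intensity after background subtraction, without scaling between arrays; the submitters' processing notes name Agilent Feature Extraction 11.5.1.1. The authors' deposited log2 table differs from the log2 of these intensities by a constant for each array and served as an alternative.

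Of 59305 non-control spots per array, non-uniform ones (0 to 4) were left out; none was saturated. Intensities of spots with the same probe were averaged (56605 probes), and the 75th percentile of its own array was subtracted from each log2 value (208.6 to 324.4 intensity units; 66.3 to 72.3% of spots well above background). Probes well above background on both arrays of a group were kept (39603), and the brightest probe stood for its gene. Group means were fitted on 8 arrays with limma 3.58.1 in R 4.3.3 (4 residual and 2.19 prior degrees of freedom); the number of arrays limits precision. The script was tested on simulated data. Figures used Python 3.11.15 with matplotlib 3.10.9.

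Values on each array are given for the members with the largest and smallest difference between LL and WW in each role class; of other pathway genes, up to 3 called ones, or a fixed set (Ifnb1, Ifnar1, Ifnar2, Irf1, Cxcl10, Ifng). Further genes were chosen after their values were seen. One pathway gene is not reported here. The members and lists were chosen with earlier results of these data known. Genes matched RefSeq symbols of GRCm38.p6 for all 37 members; probes are placed on mm9 as the array's annotation gives them, and exons were not looked up.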

Additional observations from a re-analysis of the deposited data

How the results depend on the processing

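Counts of members called are given out of 37. Between LL and WW (0 as reported) the count was 1 with quantile normalization, where the share of all genes called is not given. It was 18 on the compared arrays alone (24.2% of all genes called) and 19 without both WL arrays (32.1% of all genes called). Between LL and LW (0 as reported) it was 7 on the compared arrays alone (27.6% of all genes called) and 15 without both WL arrays (32.8% of all genes called). Leaving out the WL arrays keeps these differences and changes their error alone. Leaving out each array in turn gave 0 to 19 for LL against WW (median difference 0.51 to 0.73, 35 to 37 members above 0), 0 to 7 for WL against WW (median 0.10 to 0.57), 0 for LW against WW (median -0.10 to 0.18, 11 to 34 above 0), 0 to 4 for LL against WL (median 0.19 to 0.45), 0 to 15 for LL against LW (median 0.43 to 0.78) and 0 to 1 for the interaction (median 0.05 to 0.42). The 4 of LL against WL came without WL replicate 2, where 19.7% of all genes were called. Where 1 mouse is left in a group it is assumed to vary like the others.

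The count of members called stayed at 0 in all 6 comparisons with normexp background correction (offset 50), with the percentile taken over the probes detected everywhere, with no filter or a stricter filter, with probes of a gene averaged, with the authors' deposited log2 table, and with a trended variance model. The signs that turned between LL and WW were those of Oas2 (-0.18 without WW replicate 1; range over left-out arrays to 0.46), Oas3 (-0.20 without LL replicate 2 and -0.15 without WW replicate 1; range to 0.56), Dtx3l (-0.03 without LL replicate 2; range to 0.29) and Trim25 (-0.01 with the mean of its probes); none of these genes was called.

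The replicate numbers mark no shared litter or batch in the labels, and across genes the deviations of same-numbered arrays correlated between -0.0973 and 0.19 over all genes and between 0.0815 and 0.457 over the 37 members (5 of 6 pairs of groups over 0.1). In the fit that blocks on replicate number (pairing), 0 members were called in each comparison, and 447 of all genes between LL and WW, against 808 without it. Probes near background, such as those of Ifnb1 and Oas3, carry the least certain levels.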
